A study of Rattus norvegicus with 27 samples.

Results

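The report concerns 4801 stretches of rat DNA, each 500 bp long and rich in measured CpG sites, that carried an intermediate level of cytosine methylation in the renal outer medulla. They were chosen by their methylation level in the 12 libraries of the second of the study's 2 tables. Autosomal CpG sites with at least 10 reads in all 12 libraries of that table were placed in bins of 500 bp. The level of a bin in a rat is the number of methylated reads as a percentage of all reads over its sites. Members are the bins with at least 10 sites and a mean level from 10 to 80%, after leaving out 669 bins in which every library lay from 35 to 65%. The members are 4801 of 28573 bins with at least 10 sites, and of 189815 autosomal bins in all. Of these 4801, 4168 held 10 to 19 sites and 633 held 20 or more.

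The assay was reduced representation bisulfite sequencing (RRBS): the enzyme MspI cuts DNA at CCGG, and bisulfite turns unmethylated cytosine into a base read as T. All 27 animals were Dahl salt-sensitive (SS) rats, which become hypertensive on a high-salt diet, and per the labels each library came from the renal outer medulla of an individual rat. The second table held 12 rats of the MCW colony. HS_DT rats (n = 4) were given GapmeRs (antisense oligonucleotides) against Dnmt3a and Tet3, each at 2 mg/kg, into the kidney and a 4% NaCl diet, for a time stated as 7 without a unit. For HS_SCR (n = 4) the GapmeR was scrambled, at 4 mg/kg by the same route, and 4% NaCl was fed for 7 days. PRE_LS (n = 4) were rats on 0.4% NaCl, operated on alike, whose tissue was taken ahead of the point at which oligonucleotide and salt would start. The first table held 15 rats without surgery in the labels. MCW_HS (n = 4) and CRL_HS (n = 4) were fed 4% NaCl in the purified diet AIN-76A over 14 days, beginning at the age of 6 weeks. MCW_LS (n = 3) ate AIN-76A with 0.4% NaCl until 8 weeks, whereas CRL_LS (n = 4) ate the non-purified diet 5L2F with 0.75% NaCl until 8 weeks. In the CRL colony salt and diet type, and between MCW_LS and CRL_LS colony and diet, therefore cannot be told apart. HS_DT and HS_SCR differ from PRE_LS in oligonucleotide, salt and time together. The tissue is a mixture of tubule, vessel and interstitial cells, and a change in the share of a cell type and a change of methylation within cells cannot be told apart. Methylation counts hold no RNA markers, so the labelled tissue was not checked by markers.

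In mammals, DNMT3A and its relatives place methyl groups on CpG cytosines, DNMT1 copies them at cell division, and TET enzymes such as TET3 oxidise them. CpG-rich stretches at gene starts are mostly free of methylation, while most other CpGs are methylated. Levels between these states arise where cells, alleles or DNA molecules differ, as at imprinted genes, or where neighbouring sites differ within a stretch, as at the edge of a CpG island.

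The genome of the files' build, rn5, was not used here, so gene starts were located by matching the spacing of the measured CpGs to RefSeq promoter sequences of the build GRCr8. A set of 5 promoters from member bins is printed because they span the levels seen. Each line gives the 250 bases before the start, 5′ to 3′ on the gene's strand, from RefSeq GRCr8, and capitals mark the CpGs whose methylation was measured in all 12 rats.
Piwil1: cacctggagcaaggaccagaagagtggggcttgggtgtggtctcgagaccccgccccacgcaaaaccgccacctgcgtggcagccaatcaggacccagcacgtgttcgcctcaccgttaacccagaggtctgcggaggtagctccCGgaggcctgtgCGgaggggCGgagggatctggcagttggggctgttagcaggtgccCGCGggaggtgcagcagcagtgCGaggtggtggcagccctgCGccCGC
Rpl39l1: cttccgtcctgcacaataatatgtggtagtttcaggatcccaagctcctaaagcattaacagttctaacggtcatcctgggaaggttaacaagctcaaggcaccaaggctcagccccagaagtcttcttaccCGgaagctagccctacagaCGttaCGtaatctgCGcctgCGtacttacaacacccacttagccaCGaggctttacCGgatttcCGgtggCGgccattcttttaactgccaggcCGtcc
Tbx1: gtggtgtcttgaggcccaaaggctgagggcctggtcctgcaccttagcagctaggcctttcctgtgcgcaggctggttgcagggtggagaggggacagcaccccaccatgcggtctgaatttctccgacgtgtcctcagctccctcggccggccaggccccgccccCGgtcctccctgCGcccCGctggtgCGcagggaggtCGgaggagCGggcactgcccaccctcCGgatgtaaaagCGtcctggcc
Papolb: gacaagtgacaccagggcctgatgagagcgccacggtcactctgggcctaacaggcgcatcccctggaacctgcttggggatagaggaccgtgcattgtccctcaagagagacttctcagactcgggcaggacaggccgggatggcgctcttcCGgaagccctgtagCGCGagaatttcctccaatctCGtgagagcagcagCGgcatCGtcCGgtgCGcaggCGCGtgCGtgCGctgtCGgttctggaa
Tpt1: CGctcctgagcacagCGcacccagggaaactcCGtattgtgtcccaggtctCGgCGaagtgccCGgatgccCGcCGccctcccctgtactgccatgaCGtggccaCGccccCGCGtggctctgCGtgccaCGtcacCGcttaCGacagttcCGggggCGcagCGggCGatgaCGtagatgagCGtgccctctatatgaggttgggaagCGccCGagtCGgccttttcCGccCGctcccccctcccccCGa
A final capital C belongs to a CpG that continues into the next base. In rn5 the windows of 300 bases (these 250 and the next 50) lie at chr12:33553666-33553965 on the minus strand for Piwil1, chr10:4354327-4354626 on the minus strand for Rpl39l1, chr11:89653498-89653797 on the plus strand for Tbx1, chr12:16140166-16140465 on the plus strand for Papolb and chr15:61598536-61598835 on the plus strand for Tpt1. Their levels were 64.5% for Piwil1, 78.9% for Rpl39l1, 30.6% for Tbx1, 24.6% for Papolb and 13.03% for Tpt1.

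The level itself chose the members, so its distribution is given as a description. Members fell into a large group near the upper bound and a smaller one near the lower bound. There were 769 bins from 10 to 20%, 592 from 20 to 35%, 681 from 35 to 65% and 2759 from 65 to 80%. The classes by site number differed in where they lay. Bins with 10 to 19 sites had a median of 69.5%, and bins with 20 or more sites had a median of 19.9%. Members were 26.4% of all bins with 10 to 19 sites and 4.95% of all bins with 20 or more sites. Of the other bins with 10 or more sites, 20819 were under 10% and 2284 over 80%.

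**Figure D1:**
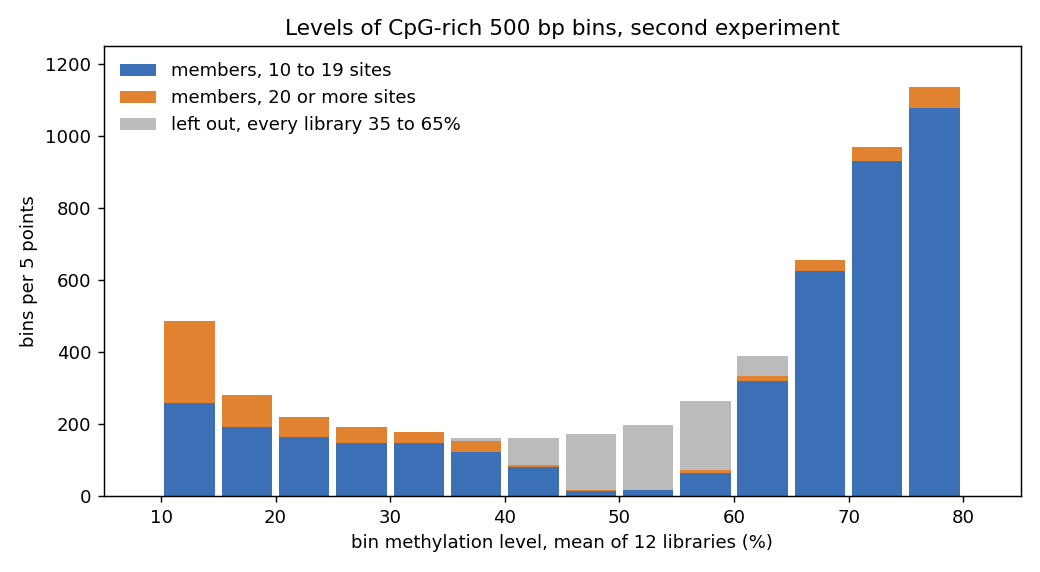
Number of bins per 5 points of methylation level (mean of the 12 libraries of the second table, x axis) for members with 10 to 19 sites, members with 20 or more sites, and the 669 bins left out because every library lay from 35 to 65%. Bins with 10 to 19 sites pile up from 65 to 80%, and bins with 20 or more sites from 10 to 20%.

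At the bounds, the bins just inside and just outside were picked by their level, so its closeness follows from that choice. The member nearest to the lower bound, chr10:61723501-61724000, had 10.0027% over 38 sites, and the nearest bin outside it, chr12:19177001-19177500, had 9.9997%. At the upper bound, the member chr1:158999501-159000000 had 79.9989%, and chr17:66058501-66059000, outside, had 80.0052%. Next to the central exclusion, the member chr4:60559001-60559500 averaged 60.5% with a highest rat at 65.01%, and the excluded bin chr4:186910501-186911000 averaged 57.2% with a highest rat at 64.99%.

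An intermediate bin level was made in different ways. In members from 65 to 80%, 53.6% of sites were over 80%, 39.7% lay from 20 to 80% and 6.64% were under 20%. In members from 20 to 35%, 65.4% of sites lay from 20 to 80%, 33.96% were under 20% and 0.594% over 80%. Upper members were thus mostly mixtures of highly methylated and intermediate sites, and lower members held hardly any highly methylated site. The standard deviation between sites of a bin had a median of 24.6 points in members from 65 to 80%, against 11.7 points in members from 20 to 35%.

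Single bins show the extremes. In chr7:122612001-122612500, which had the largest spread between sites among bins of 10 to 19 sites, 6 of 12 sites were under 20%, with the lowest at 0%, and 6 were over 80%, with the highest at 94.5%. Its bin level over the rats ran from 33.2% (HS_SCR 2) to 52.9% (HS_DT 4) around a mean of 39.95%. In chr20:10003501-10004000, which had the smallest spread, 11 of 12 sites lay from 20 to 80%, within a range of 19.2 to 25.3% over all sites, around a mean of 24.2%. The rats there ran from 17.5% (PRE_LS 1) to 38.0% (HS_DT 3). In bins with 20 or more sites, chr1:275688001-275688500 had the largest spread, with 5 sites under 20%, 3 from 20 to 80% and 12 over 80%, around 66.4%. The smallest was in chr19:48528001-48528500, where all 24 sites lay from 7.34 to 18.7%, around 13.4%. The most sites, 99, were in the very deep bin chr5:95176501-95177000 at 16.4%, and outside such bins 86, in chr12:15404001-15404500, at 22.6%, with rats from 20.3 to 26.1%. A wide spread between sites and a uniform partial level were therefore both present among the members.

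Rats were close to each other at most members. The SD over the 12 libraries had a median of 2.58 points, where counting error alone gave a median of 1.22 points, at a median of 100.8 reads per site. Members from 65 to 80% varied least, with a median SD of 1.95 points and a median variance 2.56 times that of counting. Members from 10 to 20% had a median SD of 3.08 points and a variance 13.1 times that of counting. The most uniform bin of 10 to 19 sites by this ratio, chr19:53698501-53699000, lay from 71.4 to 73.8% in all 12 rats, whereas the most variable one outside very deep bins, chr9:105975001-105975500, ran from 59.8% (HS_SCR 1) to 78.6% (HS_DT 2). In that last bin the HS_DT rats had 75.9, 78.6, 75.8 and 66.3%, the HS_SCR rats 59.8, 63.6, 64.6 and 72.3%, and the PRE_LS rats 72.2, 61.1, 64.7 and 76.5%, so all groups overlapped. With 20 or more sites, chr1:85781001-85781500 was the most uniform, from 78.8 to 80.5%, and chr5:95173501-95174000, a very deep bin, the most variable, from 7.21 to 16.8%. Outside very deep bins the most variable was chr14:46854001-46854500, from 8.10 to 20.1%, which lies within the cluster on chromosome 14 described next.

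Part of the members stood apart in depth. In 269 members (5.603%) the reads per site exceeded 10 times the median of their library, and 162 of them held 20 or more sites. Most lay in a few clusters. There were 88 in chr14:46507501-46864000, 47 in chr1:13497001-13565000, 28 in chr5:95166001-95181000 and 15 in chr6:39220501-39274500, with median levels of 13.2, 13.1, 12.98 and 12.9%. The longest run of adjacent members, 50 bins in chr14:46810501-46835500, belongs to them, at 78.1 times the median depth. A pair of these bins on different chromosomes had the same rats at the extremes. In chr1:13557001-13557500 the HS_DT rats had 11.7, 10.7, 12.01 and 17.1%, the HS_SCR rats 20.98, 17.6, 7.88 and 11.1%, and the PRE_LS rats 10.8, 11.4, 8.995 and 12.6%. HS_DT 4, HS_SCR 1 and HS_SCR 2 were the 3 highest and HS_SCR 3 was the lowest. In chr6:38856001-38856500, on another chromosome, the same rats were high at 16.03, 18.6 and 16.9% and HS_SCR 3 was again lowest at 7.91%. Some sites of very deep bins had counts identical in every library to those of another position. The median share of such sites per bin was 47.4% in the longest run and 75% in the run chr1:13551501-13559000. It was 0% in the run chr1:13505001-13509500. Very deep bins need therefore not be separate measurements, and how many of these bins are independent loci was not tested. Without them, members with 20 or more sites had a median of 26.5% (471 bins), against 19.9% with them, and members from 10 to 20% had a median variance 9.53 times that of counting (582 bins), against 13.1 times with them.

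Outside the very deep bins, the longest run was 6 adjacent members in chr1:151966501-151969500, with levels from 19.5 to 35.9% over 192 sites. Runs of 4 bins lay in chr1:229660501-229662500, at a median of 72.5%, and in chr20:6516501-6518500, at a median of 23.7%. Of all members, 4050 had no adjacent member. Where both flanking bins were measured, members from 10 to 20% mostly had low neighbours on both sides (202 of 277 bins under 20% on both). Members from 65 to 80% had neighbours from 20 to 80% on both sides in 204 of 411 cases, and a neighbour over 80% on one side with one from 20 to 80% on the other in 135. Members were spread over all 20 autosomes, making up from 12.5% of the bins with 10 or more sites on chromosomes 8 and 10 to 22.4% on chromosome 14, which holds the largest very deep cluster.

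Gene starts that could be placed were uncommon among the members. Of the 7316 genes placed, the start of at least 1 lay in 1.81% of members, against 17.4% of all bins with 10 or more sites and 23.4% of those under 10%. Bins over 80% with 10 or more sites held a start less often than members, at 0.438%. The share was 4.11% in members from 10 to 35% and 0.725% in members of 65% or more. By site number it was 1.46% in members with 10 to 19 sites and 4.11% in members with 20 or more. A start could be placed only where at least 10 measured CpGs matched. Most members held 10 to 19 sites, whereas 11945 of the 20819 bins under 10% held 20 or more. The shares are thus set at unlike site numbers. For 5463 genes with a promoter window of at least 5 measured sites, the least methylated window of each gene was taken. Of these, 97.2% were under 10% methylated and 2.31% lay from 10 to 80%. The members held windows of 90 genes in 82 bins, of 55 protein-coding and 35 long non-coding genes. There the window with the most measured sites was taken per gene, so the 2 counts are not alike.

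Single promoters are given as examples chosen after their values were seen, without a statement on gene classes. Piwil1, whose protein binds small RNAs that silence transposons in the male germ line in mouse, had 11 measured sites at 64.5 ± 4.61% (SD, n = 12). Its rats had 60.5, 59.2, 62.0 and 69.1% in HS_DT, 66.7, 64.7, 61.7 and 58.5% in HS_SCR, and 73.2, 69.5, 67.0 and 61.6% in PRE_LS, so the groups overlapped. Papolb, a testis poly(A) polymerase in mouse, stood at 24.6 ± 3.01%, Rbmxl2, a testis RNA-binding protein, at 19.05 ± 4.17% and Spata32 at 20.2 ± 2.98%. Ccer1 stood at 73.5 ± 4.51%, Fancd2os, which lies beside the DNA repair gene Fancd2, at 74.0 ± 4.80%, and Rpl39l1 at 78.9 ± 1.28%, the highest of the windows named here.

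Tbx1 and Tbx4, T-box transcription factors of pharyngeal and of limb and lung development, had 30.6 ± 4.69% and 29.6 ± 2.07%. Hoxd3, a homeobox factor of body patterning, had 23.2 ± 5.87%, and Cdx1, a homeobox factor of the intestine, had 19.2 ± 6.98%. Eng, an endothelial co-receptor for TGF-beta ligands, had 14.4 ± 3.72%, and Plvap, a protein of endothelial diaphragms, 15.6 ± 3.77%. Crb2, a polarity protein of podocytes and other epithelia, had 24.02 ± 3.20%, and Krtcap3 had 29.4 ± 6.39%. Alpk3, a kinase-like gene of the heart, stood higher at 66.6 ± 2.63%, and Dcdc2c at 65.4 ± 3.83%.

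In other bins the promoter itself was unmethylated and the level came from the sites beyond it. Smarcc1, a core subunit of the SWI/SNF chromatin remodeller, had a window at 0.0491% in a bin at 15.8%. Atmin had 0.0808% in a bin at 17.4%, Spata2 0.138% in a bin at 14.3% and Kcne3, a potassium channel subunit, 4.14% in a bin at 13.8%. In all, 17 of the 90 windows were under 10%, 42 from 10 to 35%, 11 from 35 to 65% and 20 at 65% or more.

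Sites within a promoter could be mixed or uniform. Tpt1, a translationally controlled tumour protein, had 37 sites with a median of 0% and a highest site at 42.3%, and averaged 13.03 ± 1.36%. Pmpca, a subunit of the peptidase that trims proteins on entry into mitochondria, had 17.4 ± 1.86%, with sites from 0 to 51.7%. Pabpc4, a poly(A)-binding protein, had 23.5 ± 3.63%, with all 29 sites from 9.49 to 32.8%. In genes that have processed copies elsewhere, reads of a copy cannot be told apart.

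**Figure D2:**
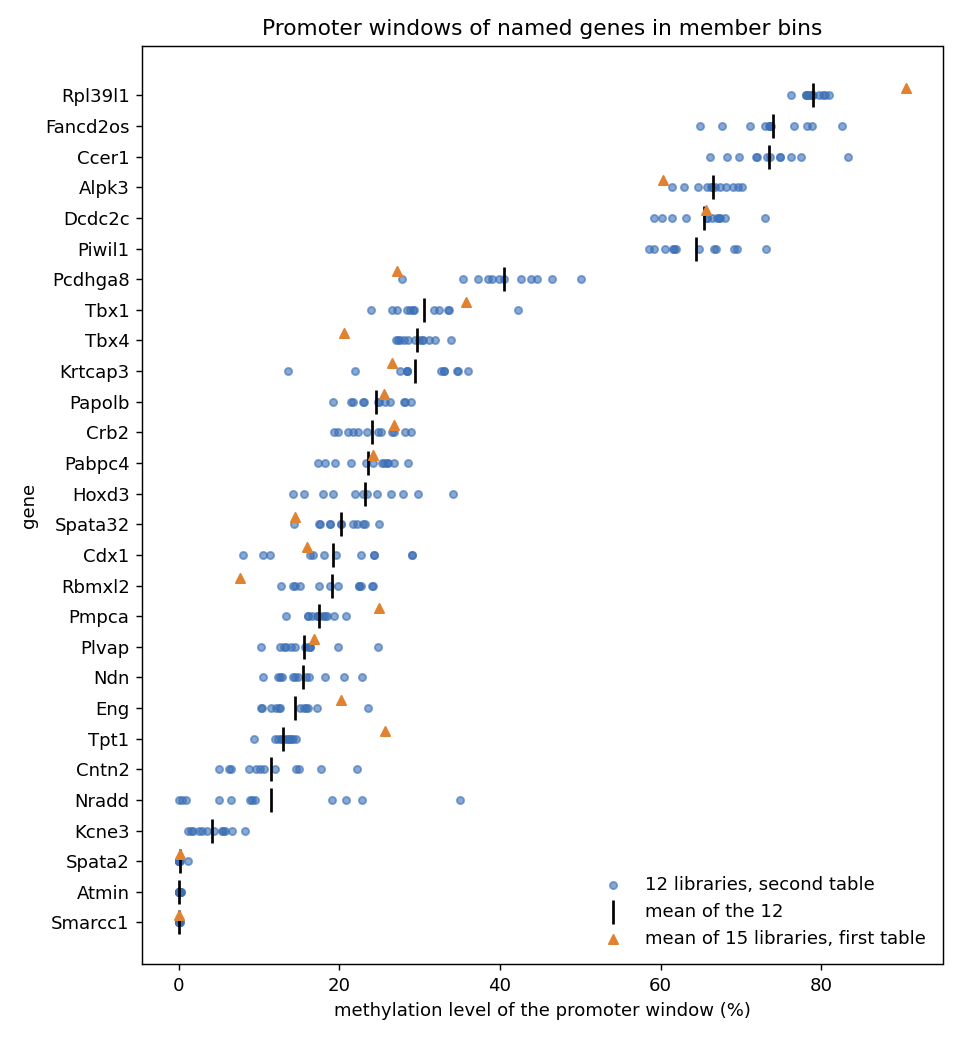
Methylation level (x axis, %) of the promoter windows of 28 genes in member bins. Circles are the 12 libraries of the second table, bars their mean, and triangles the mean of the 15 libraries of the first table where at least 3 sites were measured there. Piwil1, Ccer1, Fancd2os, Dcdc2c, Alpk3 and Rpl39l1 have means above 60%, and the others have means of 40.5% (Pcdhga8) or less.

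The lists of gene families show how few had a placed window. For genes outside the members, the level is that of the least methylated window of the gene. Of 23 imprinted genes, 4 were placed and 1, Ndn, lay in a member. Ndn, which is expressed from the paternal copy in mouse, had 15.5 ± 3.58% over 9 sites, while Gnas, Phlda2 and Igf2 had 0.0373, 0.0971 and 5.36%. Of the homeobox genes, 8 were placed and only Hoxd3 fell in a member bin; the window of Hoxd12, at 31.3%, lay in no member, and the other 6 were at 1.73% or less. Of the clustered protocadherins, adhesion proteins of which each neuron uses a subset, 2 were placed, and Pcdhga8 had 40.5 ± 5.76% where Pcdhgc3 had 0.105%. Of 15 germ-line genes 1 was placed, Ddx4, at 91.0%, over the upper bound. Of 17 genes of outer medullary tubules 1 was placed, Kcnj10, a basolateral potassium channel, at 0.403%. Of 9 genes of the methylation machinery, 2 were placed, Tet3 at 0.0932% and Tet2 at 0.0215%, and neither lay in a member.

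The CpG of the MspI site stood apart from its neighbours in the same windows. In the 20 member windows of 65% or more, CpGs within CCGG averaged 40.5 ± 0.675% and the other CpGs 79.5 ± 0.953% (SD over 12 libraries). The CCGG level was the lower of the pair in 20 of 20 windows and 12 of 12 libraries. The first table gave 40.6 ± 2.85% and 78.7 ± 1.27% over 12 of these windows, with the same direction in 15 of 15 libraries. In Rpl39l1 the 4 CCGG sites averaged 39.1% and the other sites 89.6%. Placed windows that were over 80% showed the same gap, at 48.0% against 91.8%. The rule bounds the bin and not the window, and 2 of the 20 member windows were over 80%. This set is therefore not separate from the members. In 8 of the 20 member windows the CpGs outside CCGG averaged over 80%. Bin levels without their CCGG sites were not computed, so how far membership depends on the cut sites was not tested. Windows from 10 to 35% had 8.25% at CCGG and 19.2% elsewhere. MspI sites are where fragments end and are repaired during library preparation; the part of that step in the gap was not tested.

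**Figure D3:**
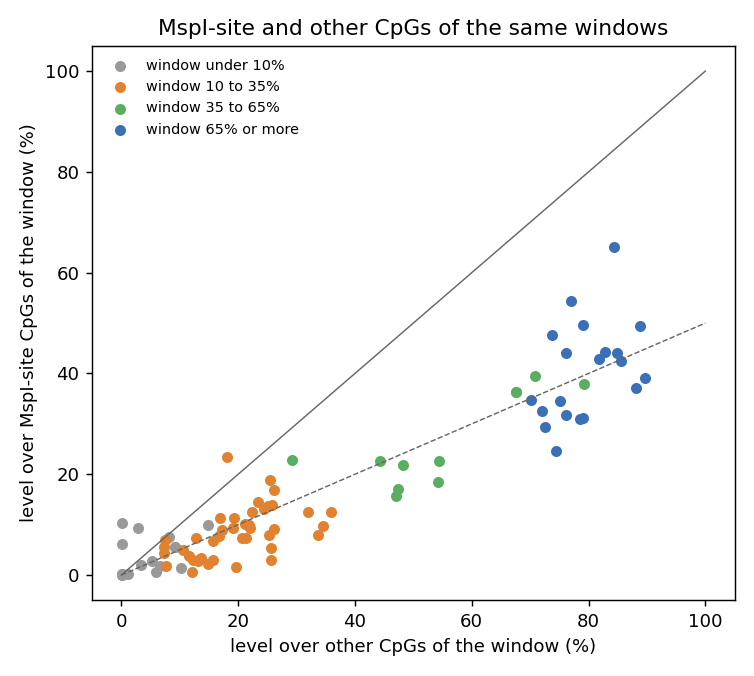
Mean level over the CpGs within CCGG (y axis, %) against the mean level over the other CpGs (x axis, %) of the same promoter window, for the 90 windows in member bins, coloured by window level. The solid line marks equal levels and the dashed line a CCGG level at 50% of the other level. Windows of 65% or more lie below the solid line and scatter about the dashed line. Their CCGG levels run from 24.6 to 65.1% and their other levels from 70.2 to 89.6%.

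The first table, whose libraries the rule did not use, gave an independent reading of the same bins. Over the sites that both tables hold, 3097 members could be compared. Their median was 66.0% in the first table, against 65.7% in the second. Across bins, which are not independent replicates, Pearson's r was 0.971 and Spearman's rho 0.946. The levels were within 5 points of each other in 74.2% and within 10 points in 91.5%. Of these members 86.3% lay from 10 to 80% in the first table too. The partial level was thus mostly found again in other rats of both colonies, at lower depth.

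A minority of bins was nearly unmethylated in the first table but partly methylated in the second. In 31 members the shared sites averaged under 5% over the rats of the first table but 20% or more over those of the second (cuts chosen after the values were seen). The rule, which requires 10% or more in the second table, leaves little room for the reverse. By a symmetric count, the second table was higher by 15 points or more in 58 of the 3097 members and the first table in 43. Among 18462 other bins the second table was higher by that much in 8 and the first in 18. Bins under 10% in the second table, which the rule leaves out of the members, have little room to be higher there. Members and other bins therefore cannot be set against each other by these counts. In those 31 bins the highest level in any of the 15 rats of the first table was 9.52%, and the lowest in any of the 12 rats of the second was 8.57%. Their median was 0.397% in the first table, whereas the second gave 28.6%. In chr1:153316501-153317000, with 23 shared sites, the first table ran from 0 to 1.32% and the second from 23.4 to 29.0%. In chr3:53773001-53773500, with 34 shared sites, the ranges were 0 to 1.05% and 20.3 to 26.6%. The bins were clustered, with 14 in chr1:148661501-154468500, 7 in chr3:52580501-53773500 and 4 in chr17:37994501-38459000. Among the 31 bins, 10 had 50% or more of their sites with counts copied at another position. Their median depth relative to the library median was 0.686 in the first table, over the shared sites, and 1.35 in the second. Some bins with equal levels at the shared sites had unlike depths in the second table, so that depth was not limited to those sites. The depths thus cover unlike sites, and whether depth moved with the level was not tested. The tables differ in experiment, surgery, depth and read processing together, which cannot be told apart.

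**Figure D4:**
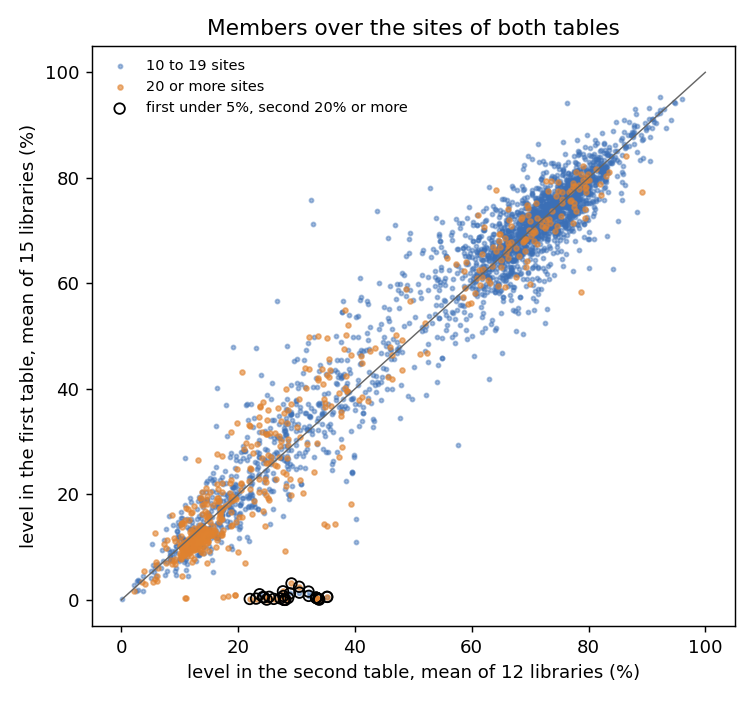
Level of 3097 members over the sites of both tables, as the mean of the 15 libraries of the first table (y axis, %) against the mean of the 12 libraries of the second (x axis, %). Of these points 91.5% lie within 10 points of the line of equality, while the circled 31 bins lie under 5% on the y axis and at 20% or more on the x axis.

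The promoter windows showed the same mixture of stable and shifted levels between the tables. Papolb had 25.6 ± 6.00% in the 15 libraries of the first table, close to its 24.6%, and Pabpc4 had 24.2 ± 4.80%. Tpt1 had 25.7 ± 7.32% over 23 sites where the second table gave 13.03% over 37. Rbmxl2 had 7.66 ± 3.19% over 7 sites, below its 19.05% over 16. These means cover the sites each table holds, so differences in sites and in rats cannot be told apart.

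Averaged over all members, the 7 groups were within a few points of each other. Members with 10 to 19 sites averaged 59.0 ± 0.129% in HS_DT, 59.1 ± 0.5998% in HS_SCR and 59.0 ± 0.331% in PRE_LS (n = 4 each). In the first table, where 2555 of them had at least 3 sites, they averaged 59.6 ± 0.654% in MCW_HS, 59.0 ± 0.257% in MCW_LS, 59.6 ± 0.601% in CRL_HS and 58.8 ± 0.392% in CRL_LS. Every pair of groups overlapped.

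Members with 20 or more sites averaged 31.0, 31.1, 31.1 and 31.8% in the HS_DT rats, 32.8, 32.9, 30.8 and 30.3% in the HS_SCR rats, and 30.7, 30.1, 29.9 and 31.7% in the PRE_LS rats. There were 567 of them in the first table, which averaged 27.8, 31.1, 31.8 and 30.4% in the MCW_HS rats, against 27.7, 26.9 and 30.4% in the MCW_LS rats. The CRL_HS rats had 30.5, 30.5, 31.6 and 29.5%, against 28.7, 28.7, 28.8 and 29.8% in the CRL_LS rats. High-salt rats tended to the upper side in both colonies, but the groups overlapped. The differences were 1.95 ± 1.37 points for MCW_HS minus MCW_LS, 1.52 ± 0.515 points for CRL_HS minus CRL_LS and 1.10 ± 0.776 points for HS_SCR minus PRE_LS (SE).

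**Figure D5:**
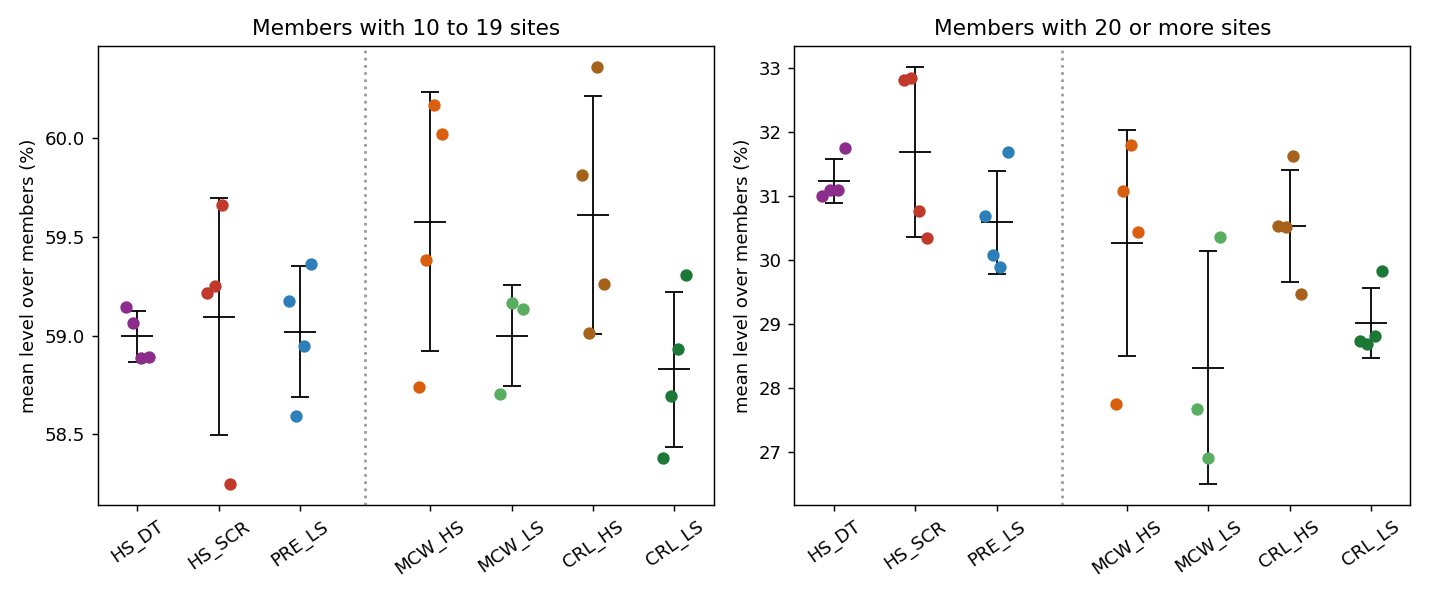
Mean level over members (y axis, %) per library, for members with 10 to 19 sites and with 20 or more sites. Points are libraries, bars the group mean ± SD, and the dotted line separates the second table (left) from the first (right). The y axes do not start at 0. Groups overlap within each table.

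Without the 162 very deep bins, members with 20 or more sites lay higher on high salt without overlap in both colonies. Their means (405 bins) ran from 35.8 to 37.9% in MCW_HS rats, against 34.2 to 35.7% in MCW_LS rats, and from 36.03 to 37.2% in CRL_HS rats, against 34.9 to 35.6% in CRL_LS rats. The differences were then 1.83 ± 0.703, 1.45 ± 0.309 and, for HS_SCR minus PRE_LS, where the groups overlapped, 0.398 ± 0.475 points (SE).

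By level, the salt difference of the first table was largest in members from 20 to 35%, but 2 other ranges came close to it. Members from 10 to 20% differed by 1.68 ± 1.52 points in the MCW colony and 1.41 ± 0.596 points in the CRL colony (SE). Members from 35 to 65% differed by 1.55 ± 0.684 and 1.45 ± 0.547 points, and groups overlapped in both ranges. Whether the ranges differ was not tested. HS_SCR minus PRE_LS was largest in members from 10 to 20%, at 1.09 ± 0.655 points, or 0.385 ± 0.302 points without the very deep bins (SE). Of the members from 20 to 35%, 368 had at least 3 sites in the first table. In them the MCW_HS rats averaged 27.1, 28.1, 28.4 and 29.8%, against 26.9, 24.8 and 26.6% in the MCW_LS rats. The CRL_HS rats averaged 27.5, 27.2, 27.4 and 26.7%, against 24.8, 26.03, 25.2 and 26.5% in the CRL_LS rats. High-salt rats lay above low-salt rats without overlap in both colonies, by 2.25 ± 0.863 and 1.56 ± 0.410 points (SE). In the second table the groups overlapped in members from 20 to 35%, with a difference of 0.324 ± 0.602 points for HS_SCR minus PRE_LS. Members from 65 to 80% showed 0.112 ± 0.442 points in the MCW colony and 0.514 ± 0.386 points in the CRL colony. No test was made of these averages, since the members were chosen with results known.

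Bin by bin, no member passed an adjusted p of 0.05 in any of the 8 tests, and neither did any other bin. The test was a quasi-binomial model on the counts, moderated with limma and adjusted over all bins fitted. For MCW_HS minus MCW_LS, 0 of 3063 members and 0 of 28188 bins were called (0%). Unadjusted p-values were below 0.05 in 292 members (9.53%), 181 higher and 111 lower, where 6.23% of all bins passed. Without MCW_LS 2 there were 170 members (5.55%, against 4.65% of all bins), and without MCW_LS 3 there were 351 (11.5%, against 6.35%). Under limma on log2 ratios, an alternative, 154 members passed (5.03%) where 5.47% of all bins did, so the excess over the background was not seen with that model. Groups did not overlap in 192 members (6.27%), against 6.1% of all bins. The median difference was 0.69 points in members and 0.34 points in all bins.

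For CRL_HS minus CRL_LS, 0 of 3057 members were called (0% of bins), and 255 had an unadjusted p below 0.05 (8.34%), against 5.92% of all bins. Of these, 190 were higher and 65 lower in CRL_HS. Without CRL_HS 4 there were 389 members (12.7%, against 6.95%), and without CRL_HS 3 there were 191 (6.25%, against 5.09%). Groups did not overlap in 99 members (3.24%), against 3.07% of all bins, and limma on log2 ratios gave 153 members (5.00%, against 5.68% of all bins) and no call. The median difference was 0.79 points in members and 0.37 points in all bins.

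For MCW_LS minus CRL_LS, 0 of 3055 members were called (0% of bins), with 268 at an unadjusted p below 0.05 (8.77%, against 5.62% of all bins) and 181 without overlap (5.92%, against 5.59%). That absence of calls depended on 1 library: without MCW_LS 3, 124 members were called, 113 of them very deep, and 462 had an unadjusted p below 0.05 (15.1%, against 6.53%). For MCW_HS minus CRL_HS, 0 of 3067 were called (0% of bins), with 230 at an unadjusted p below 0.05 (7.50%, against 5.95%) and 91 without overlap (2.97%, against 3.32%). The difference of the salt effects between the colonies gave 0 calls (0% of bins) and 220 members at an unadjusted p below 0.05 (7.18%, against 5.34%). That count was 143 without MCW_LS 2 (4.67%, against 4.53%) and 245 without MCW_LS 3 (8.00%, against 5.37%). Under limma on log2 ratios the counts of these 3 tests were 179 (5.86%, against 5.25% of all bins), 153 (4.99%, against 5.84%) and 125 (4.08%, against 4.85%), with no call. Shares of members without overlap were near the background in both colony comparisons.

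In the second table, HS_SCR minus PRE_LS gave 0 calls among 4801 members (0% of bins) and 311 members at an unadjusted p below 0.05 (6.48%, against 4.77% of all bins), 191 higher and 120 lower. HS_DT minus HS_SCR, the comparison of the GapmeRs against Dnmt3a and Tet3, gave 0 calls (0% of bins) and 254 members (5.29%, against 4.41%), 124 higher and 130 lower. HS_DT minus PRE_LS gave 0 calls (0% of bins) and 347 members (7.23%, against 5.21%), 191 higher and 156 lower. Groups did not overlap in 106, 123 and 150 members in that order (2.21, 2.56 and 3.12%), against 2.64, 2.56 and 3.03% of all bins. Under limma on log2 ratios the counts at an unadjusted p below 0.05 were 161 (3.35%, against 4.75%), 156 (3.25%, against 4.58%) and 220 (4.58%, against 5.51%), with no call, so the members lay below the background there. These comparisons share rats, so their values are not independent. Differences of 10 points or more were found in 20, 23 and 20 of the 4801 members. Among all bins they were found in 842 of 96299, 791 of 96356 and 842 of 96261, a larger share in each comparison. Bins were fitted from 3 sites up, while members held 10 or more, so these shares are set at unlike site numbers.

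Most very deep bins went the same way within a comparison. For HS_SCR minus PRE_LS, 206 of 269 were higher with a median of 3.06 points, and for HS_DT minus PRE_LS 216 of 269 with a median of 2.16 points. Among the bins of the first table, 222 of 265 were higher for MCW_HS minus MCW_LS (median 1.85 points) and 230 of 264 for CRL_HS minus CRL_LS (median 1.53 points). The remaining 3 comparisons between groups went down, with 67 of 269 higher for HS_DT minus HS_SCR (median -0.71 points), 44 of 265 for MCW_LS minus CRL_LS (median -1.93 points) and 42 of 265 for MCW_HS minus CRL_HS (median -1.78 points). Part of the sites of very deep bins held copied counts, so bins of a cluster need not be separate measurements. How many of these bins are separate was not tested. Without them, the remaining members had medians of -0.040 and -0.015 points in the second table, and of 0.52 and 0.65 points in the first. The mean over the remaining members differed by 0.0940 ± 0.359 points for HS_SCR minus PRE_LS, against 0.210 ± 0.360 with them, by 0.757 ± 0.355 points for MCW_HS minus MCW_LS and by 0.877 ± 0.335 points for CRL_HS minus CRL_LS (SE).

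The members with the smallest p in each direction are named as examples, none of them called. In chr15:107591501-107592000 the MCW_HS rats had 26.7, 24.5, 23.7 and 26.4%, against 11.4, 11.9 and 15.9% in the MCW_LS rats. The difference was 12.3 points (adjusted p = 0.576), and the CRL groups lay the other way, at 15.3 ± 8.23% in CRL_HS and 22.4 ± 4.96% in CRL_LS. In chr10:10883001-10883500, with 4 sites in the first table and as few as 40 reads in a rat, the MCW_HS rats had 58.7, 65.9, 66.2 and 70.7%, against 77.6, 89.6 and 87.1% in the MCW_LS rats (difference -19.4 points, adjusted p = 0.630). The same bin led MCW_HS minus CRL_HS downward, with 84.3 ± 3.90% in CRL_HS (difference -18.96 points, adjusted p = 0.494), and the difference of salt effects (-22.2 points, adjusted p = 0.802). That difference was most positive by p in chr2:109881501-109882000, at 24.8 points (adjusted p = 0.802) on 3 sites, with 77.8 ± 3.30% in MCW_HS, 63.2 ± 5.36% in MCW_LS, 59.7 ± 7.45% in CRL_HS and 69.9 ± 4.45% in CRL_LS.

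In chr11:73369501-73370000 the CRL_HS rats had 40.9, 40.5, 42.5 and 42.9%, against 30.03, 29.02, 34.98 and 29.5% in the CRL_LS rats (difference 10.8 points, adjusted p = 0.626). The MCW groups overlapped there, at 40.01 ± 5.82% in MCW_HS and 36.3 ± 9.67% in MCW_LS. The bin of Ndn, chr1:124119001-124119500, led in the other direction. Its CRL_HS rats had 11.8, 9.89, 11.9 and 12.8%, against 17.5, 25.6, 17.4 and 24.4% in the CRL_LS rats (difference -9.64 points, adjusted p = 0.626). The MCW_HS rats averaged 17.7 ± 3.38% and the MCW_LS rats 14.96 ± 2.55%, which overlap, and the difference of salt effects was 12.4 points (adjusted p = 0.802). Only 6 of the 28 sites of the bin were measured in the first table.

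Between the colonies on low salt, chr15:2359501-2360000 had 41.7, 40.04 and 35.4% in the MCW_LS rats, against 25.5, 21.1, 23.5 and 25.4% in the CRL_LS rats (difference 15.1 points, adjusted p = 0.466). In chr12:19164501-19165000 the MCW_LS rats had 16.996, 15.3 and 14.4%, against 24.6, 21.3, 25.9 and 23.8% in the CRL_LS rats (difference -8.33 points, adjusted p = 0.626). On high salt, chr1:151968001-151968500, a bin of the longest run outside the very deep clusters, had 15.5, 22.3, 19.4 and 21.8% in the MCW_HS rats, against 12.9, 10.7, 10.1 and 9.54% in the CRL_HS rats (difference 8.91 points, adjusted p = 0.494). The bin was at 35.9% in the second table, and at 18.5 ± 3.86% in MCW_LS and 9.50 ± 5.67% in CRL_LS, so every group of the first table averaged less.

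In the second table, chr3:129677501-129678000 had 35.3, 37.3, 33.9 and 37.5% in the HS_SCR rats, against 24.6, 27.8, 28.3 and 26.2% in the PRE_LS rats (difference 9.29 points, adjusted p = 0.772). The HS_DT rats lay between them, at 31.6, 29.7, 30.03 and 28.7%, without overlap with either group. In chr1:85153501-85154000 the HS_SCR rats had 68.9, 69.2, 66.3 and 68.1%, against 77.3, 75.8, 73.5 and 77.0% in the PRE_LS rats (difference -7.77 points, adjusted p = 0.9997), and HS_DT averaged 68.4 ± 2.13%. For HS_DT minus HS_SCR, chr7:140521501-140522000 had 33.5, 28.4, 28.4 and 31.3% in the HS_DT rats, against 38.2, 37.6, 46.1 and 40.7% in the HS_SCR rats (difference -10.3 points, adjusted p = 0.9998). In the other direction, chr7:134788001-134788500 had 77.1, 77.3, 77.6 and 77.4% in the HS_DT rats, against 73.5, 72.7, 69.1 and 70.4% in the HS_SCR rats (difference 5.94 points, adjusted p = 0.9998). PRE_LS averaged 77.0 ± 2.72% in that bin, close to HS_DT.

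Against PRE_LS, HS_DT was higher in chr16:19972501-19973000, with 40.9, 46.0, 46.8 and 43.4% in the HS_DT rats, against 30.7, 33.8, 30.4 and 28.1% in the PRE_LS rats (difference 13.5 points, adjusted p = 0.381). It was lower in chr17:17807001-17807500, with 33.6, 35.5, 37.5 and 31.4% in the HS_DT rats, against 47.0, 46.4, 44.3 and 42.2% in the PRE_LS rats (difference -10.5 points, adjusted p = 0.706). HS_SCR averaged 42.0 ± 5.71% in the bin on chromosome 16 and 38.2 ± 4.15% in the bin on chromosome 17, both between the means of the other groups.

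The promoter bins gave no call either. Of 82 such bins in the second table, 6 had an unadjusted p below 0.05 for HS_DT minus HS_SCR (4.41% of all bins did), 11 for HS_DT minus PRE_LS (5.21% of all bins) and 3 for HS_SCR minus PRE_LS (4.77% of all bins). In the first table there were 6 of 65 for MCW_HS minus MCW_LS (6.23% of all bins), 10 of 64 for CRL_HS minus CRL_LS (5.92%), 5 of 64 for MCW_LS minus CRL_LS (5.62%), 8 of 65 for MCW_HS minus CRL_HS (5.95%) and 5 of 65 for the difference of the salt effects (5.34%). The smallest adjusted p over these was 0.626. The Hoxd3 window had 18.01, 21.9, 14.2 and 15.6% in the HS_DT rats, 23.5, 24.7, 29.8 and 34.1% in the HS_SCR rats, and 27.9, 26.5, 23.01 and 19.2% in the PRE_LS rats. HS_DT lay below HS_SCR without overlap and overlapped PRE_LS. Its bin differed by -8.23 points for HS_DT minus HS_SCR (adjusted p = 0.9998). In the first table the sites of that bin differed by 25.1 points for MCW_HS minus MCW_LS (adjusted p = 0.798) and by -19.2 points for CRL_HS minus CRL_LS (adjusted p = 0.846), and the salt effects differed by 44.3 points (adjusted p = 0.874). Tbx1 had 23.9, 26.6, 29.2 and 28.5% in the HS_DT rats, 31.8, 27.2, 42.3 and 33.6% in the HS_SCR rats, and 32.4, 29.3, 28.8 and 33.6% in the PRE_LS rats. HS_DT overlapped both other groups. In the first table Tbx1 had 31.6 ± 0.807% in CRL_HS and 38.5 ± 3.06% in CRL_LS (bin difference -6.88 points, adjusted p = 0.626), but 36.3 ± 4.26% in MCW_HS and 37.1 ± 5.95% in MCW_LS.

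Depth and library quality bear on all of these values. Total reads over all sites ran from 174400859 to 257658964 per library in the second table and from 35040331 to 95102303 in the first, with median depths of 66 to 98 and 24 to 66 reads per common site. The first table accordingly held only 65.03% of the members with 3 or more sites. The median size of a bin difference in members was from 1.11 points (HS_DT minus HS_SCR) to 2.51 points (the difference of the salt effects).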

How the data were processed

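RRBS libraries of 27 rats were analysed from 2 tables of counts, which per the file headers give methylated (C) and unmethylated (T) reads per library and CpG. Per the submitters' processing notes, Trim Galore 0.2.5 was used and the build was rn5. Aligner and caller: not given in the sources used here. Nor is any removal of PCR duplicates, so counting errors cover sampling of reads only. The deposited counts were tested in each table separately, since depth and sites differ.

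Counts were summed over bins of 500 bp (a minimum of 10 reads per site and library, at least 3 sites per bin, pooled level from 5 to 95%). Groups were compared with a quasi-binomial logistic regression whose dispersion was moderated by squeezeVar of limma 3.58.1 and held at 1 or more, with a two-sided F test and Benjamini-Hochberg adjustment over all bins. It was checked on simulated counts. Alternatives were another coverage minimum, no level filter, a common dispersion, limma on log2((C + 1)/(T + 1)), copied positions left out, a replicate block and each library left out. Members and lists were chosen with earlier results of these data known.

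Named bins are, per site class, those with the most sites, the highest and lowest variance ratio and the largest and smallest spread between sites, those next to each bound, the longest runs, and per comparison and direction those with the smallest p. The text gives the first of each. A very deep bin has over 10 times the median depth of its library. This cut and the named genes were chosen after values were seen. Promoter windows were placed by their CpG spacing, with at least 10 CpGs matched on the same chromosome, only 1 placement, and an order that follows neighbouring genes; names and letters come from GRCr8 and no coordinate does. Of 27457 genes, 7316 were placed. Gene lists were used through this match rather than an rn5 annotation. Python 3.11.15, numpy 2.4.6, R 4.3.3 and matplotlib 3.10.9 were used.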

Additional observations from a re-analysis of the deposited data

Results flagged for a closer look

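In 246 groups of 4 libraries, 16 values lay so far from the other 3 that Dixon's test at 95% picked them out; chance alone picks about 1 in 20. Over all members, HS_SCR 4 had the lowest mean of its group, at 54.6%. Over members with 20 or more sites, a HS_DT library was high at 31.8% and a CRL_LS library at 29.8%. In chr11:73369501-73370000 a CRL_LS library was high at 34.98%, and in chr12:19177001-19177500, just outside the lower bound, a PRE_LS library at 11.3%.

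Among the promoters, a HS_DT library was low for Nradd at 0% and for Pmpca at 13.3%. A MCW_HS library was high for Tbx4 at 23.7%, a CRL_LS library was low for Dcdc2c at 48.8%, and a HS_SCR library was high for Rpl39l1 at 80.5%. Nradd ranged from 0 to 35.1% over the 12 rats of the second table. The remaining 6 lay near 0, where a few reads decide the value. They were high libraries for Atmin at 0.195% (HS_SCR) and 0.170% (PRE_LS), and for Spata2 at 1.22% (HS_DT), 0.0457% (HS_SCR), 0.769% (MCW_HS) and 1.89% (CRL_HS).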

How the results depend on the processing

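No bin and no member was called in the 8 tests under the settings named in the methods, with exceptions. With 1 common dispersion in place of a moderated one, bins called and, of them, members called were 1632 and 552 for MCW_HS minus MCW_LS, 1434 and 481 for CRL_HS minus CRL_LS, 1457 and 504 for MCW_LS minus CRL_LS, 1467 and 487 for MCW_HS minus CRL_HS, 999 and 397 for the difference of the salt effects, 2945 and 701 for HS_SCR minus PRE_LS, 2867 and 661 for HS_DT minus HS_SCR, and 3394 and 763 for HS_DT minus PRE_LS; that setting ignores that bins differ in their spread between rats. Leaving out each library in turn, calls for MCW_LS minus CRL_LS ranged from 0 to 135 bins and from 0 to 124 members, all 124 without MCW_LS 3; of these 122 were lower and 113 very deep, with a median difference of -6.07 points. In the other tests that range was 0 to 0. Members of 10 to 19 sites numbered 2769 at a coverage minimum of 20, and members of 20 or more sites numbered 315 with bounds of 20 to 80%. The members' median in the first table was 65.2% at a coverage minimum of 5 and 66.8% at 20. With cut-offs of 10 and 90%, low, intermediate and high sites made up 14.05, 71.3 and 14.6% of the members' sites; at a coverage minimum of 20 high sites made up 27.1%. The replicate numbers share only a number, with correlations from -0.0829 to 0.132 between same-numbered libraries; the replicate block gave 0 calls, and 549 members against 347 at an unadjusted p below 0.05 for HS_DT minus PRE_LS. Among single bins, 17 results passed the threshold under an alternative only and none changed direction. The cause of these shifts was not tested.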
